A study of Rattus norvegicus with 6 samples.

Results

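The genes described here are 7 enzymes of cholesterol synthesis (Hmgcs1, Idi1, Fdps, Fdft1, Sqle, Lss and Cyp51), the sterol sensor partner Insig1 and the transcription factor gene Srebf2, which encodes SREBP2. They were chosen by symbol, and all 9 were found among the 18631 genes of the deposited tables and among the 13423 genes tested. Polyadenylated RNA was sequenced from rat vascular smooth muscle cells, which give the vessel wall its tone. The 3 libraries of one group carry the genotype label MIAT knockdown, and the 3 libraries titled Scr carry a wild-type label and are called control here. Per the labels' protocols, siRNAs and ASOs against the long noncoding RNA MIAT were used at 50 nM in all for 72 h. This text stands with every library, and it does not say what the control cells received. The labels name no separate cultures or animals behind the libraries of a group, so the p-values rest on the spread among these samples alone, and it may be technical. In RNA from bulk cells, fewer cells of a kind and less RNA per cell cannot be told apart. Miat was not analysed here, so the labels could not be checked against the targeted gene.

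Cholesterol is built from acetyl-CoA through mevalonate, isoprenoid units, squalene and lanosterol, and most genes of this route are switched on together by SREBP2. When membrane sterol is low, the escort protein SCAP carries SREBP2 from the endoplasmic reticulum to the Golgi, where proteases free its active part. When sterol is high, INSIG proteins hold SCAP back, so Insig1 is both a target and a brake of the pathway. In smooth muscle cells, sterol supply bears on membrane growth during proliferation and on foam cell formation.

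Total counts ranged from 17793811 to 20121161 per library. Smooth muscle markers were present at unequal levels. The 10 smooth muscle markers summed to 4800 to 6820 FPKM in the knockdown and 5230 to 6430 FPKM in the control libraries, FPKM being counts per unit of gene length and of library total. Tagln and Acta2 made up most of these sums. Over all libraries Myh11 stood at 15.8 to 40.2 FPKM, Mylk at 4.61 to 13.5 FPKM and Myocd at 0.480 to 2.12 FPKM. The endothelial markers summed to 1.10 to 1.46 FPKM in the knockdown and 1.39 to 1.89 FPKM in the control libraries, with Cdh5 at 0 or close to it. The 6 leukocyte markers in the table summed to at most 16.4 and 20.9 FPKM, and Ptprc, the defining marker, was at 0 in 5 of 6 libraries. Cd14, at 8.26 to 9.78 FPKM, and Cd68, at 2.01 to 8.66 FPKM, made up most of that sum. Fibroblast markers, which cultured smooth muscle cells also express, summed to 3350 to 5720 and 3840 to 8920 FPKM. Their sum exceeded that of the smooth muscle markers in knockdown library 3 and control library 3 alone.

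Promoter sequences from RefSeq (build GRCr8) matched 7 of the 9 genes, all but Sqle and Fdft1. The 250 bases before each start were searched on both strands for the letters TCACNCCA, a core of the sterol regulatory element that SREBP2 binds, and for CCAAT, the box of the partner factor NF-Y. The stretches below are shown because they hold the matches of the regulator gene, of 3 enzymes at different steps, and of Lss, the one gene of the 9 called for knockdown, in the fit with a replicate block alone. Capitals mark matches, each stretch reads 5′ to 3′ on the gene's strand, and ATTGG is CCAAT on the other strand.
Srebf2, chr7:115543141-115543192, + strand: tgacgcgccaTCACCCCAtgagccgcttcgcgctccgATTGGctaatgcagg
Hmgcs1, chr2:53382106-53382185, + strand: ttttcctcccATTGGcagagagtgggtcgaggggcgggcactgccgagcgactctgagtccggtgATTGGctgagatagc
Idi1, chr17:66547545-66547600, - strand: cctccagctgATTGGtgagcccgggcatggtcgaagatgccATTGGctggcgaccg
Fdps, chr2:176804887-176804956, - strand: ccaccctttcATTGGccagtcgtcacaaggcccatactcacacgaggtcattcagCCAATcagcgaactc
Lss, chr20:12118298-12118322, - strand: tgatgctctgATTGGccgcgctcgc

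CCAAT was found before 6 of the 7 genes with a sequence, all but Cyp51, against 34.0% of all 33469 promoters of the same length. TCACNCCA was found before Srebf2 alone, 156 bases upstream of the start, against 3.24% of all promoters. A match describes letters in this window and is not a measured binding site. The lack of a match does not show that the element is missing, since other spellings and other windows were not searched.

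The 9 genes differed in level by about an order of magnitude when set on the scale per length. Over all 6 libraries Fdps, which makes farnesyl diphosphate, was highest at a mean of 166 FPKM, followed by Cyp51, the lanosterol demethylase, at 71.4 FPKM and Hmgcs1, the synthase that opens the mevalonate route, at 39.2 FPKM. In each of the 6 libraries these 3 kept that order, and Hmgcs1 was above Sqle. The order below them was not separated by the spread between libraries. Sqle, the squalene epoxidase, averaged 29.5 FPKM, Insig1 28.0 FPKM and Fdft1, the squalene synthase, 27.9 FPKM, and Sqle exceeded Insig1 in 4 of 6 libraries and Insig1 exceeded Fdft1 in 3 of 6. Idi1, the isopentenyl diphosphate isomerase, averaged 19.0 FPKM, Srebf2 18.4 FPKM and Lss, the lanosterol synthase, 16.3 FPKM, with Idi1 above Srebf2 in 3 of 6 libraries and Srebf2 above Lss in 5 of 6. RefSeq lists pseudogenes of Fdps, Cyp51 and Idi1, and reads shared with them make the levels of these genes uncertain.

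Knockdown against control was tested in the fit fixed for the comparison, edgeR's quasi-likelihood test without further covariates. It called 0 of the 9 genes at an adjusted p under 0.05 (Benjamini-Hochberg over all genes tested), against 0.00% of the 13423 genes tested. At an unadjusted p under 0.05 it gave 0 of the 9 and 2576 of all genes, and DESeq2 on the same design also called 0 of the 9, against 5.21% of all genes. Sample titles carry numbers 1 to 3 within each group, and libraries with the same number deviated together, so a fit with the number as a block is given beside it. The words rose and fell are kept for genes past that same threshold in the edgeR block fit. The block fit called 1 of the 9 genes, downward, against 21.6% of all genes in either direction and 11.1% downward. None of the 9 rose, against 10.5% of all genes. DESeq2 with the block also called 1 of the 9, against 11.8% of all genes. The groups did not overlap in 0 of the 9 genes, against 26.0% of all genes. The median log2 fold change of the 9 was -0.15 without and -0.12 with the block, beside -0.01 over all genes in both fits.

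Lss closes squalene epoxide into lanosterol, the first sterol of the route, and was the gene that fell. Its levels were 46.5, 73.6 and 79.1 CPM (counts scaled to the TMM library size) in knockdown libraries 1 to 3 and 68.4, 83.2 and 111 CPM in control libraries 1 to 3. Each knockdown library lay below the control of its own number, while the groups overlapped as wholes. The means were 66.4 ± 17.4 and 87.4 ± 21.5 CPM (SD, n = 3), a 1.32-fold fall with the block. Its log2 fold change was -0.40 in both fits. In edgeR the adjusted p was 0.416 without the block (standard error 0.241) and 0.0105 with it (standard error 0.0793). Within pairs 1, 2 and 3 the log2 difference was -0.55, -0.18 and -0.49, so pair 2 showed the smallest fall. Over all 9 block fits tried, the edgeR, DESeq2 or limma-voom adjusted p ran from 9.14e-06 to 0.0478 and the log2 fold change from -0.52 to -0.30. The lowest adjusted p came without pair 3 and the highest without pair 1, so both ends rest on fewer samples. In the 14 fits without the block the adjusted p of those tools ran from 0.320 to 0.731. The unblocked log2 fold change was -0.19 both without knockdown library 1 and without control library 3.

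In TMM-scaled CPM, Srebf2 and Insig1, the regulator and its brake, were below the control in 3 of 3 pairs without passing the test. With Lss, 3 of the 9 genes were lower in every pair, against 28.5% of all genes. Srebf2 stood at 74.1, 102 and 115 CPM in knockdown libraries 1 to 3 and at 94.7, 112 and 120 CPM in control libraries 1 to 3. The gap was widest in pair 1 and the groups overlapped. Its block log2 fold change was -0.18 with a 95% interval of -0.337 to -0.0295 that is not corrected for the number of genes, and its edgeR adjusted p was 0.0861. Without pair 3 it passed (log2 fold change -0.24, adjusted p = 0.00183), and over the 9 block fits the adjusted p reached 0.499. Without knockdown library 1 its unblocked log2 fold change was -0.0051, against -0.17 with all libraries. Insig1 stood at 79.6, 99.9 and 116 CPM against 91.3, 102 and 142 CPM, with pair 2 nearly level. Its block log2 fold change was -0.17, with an interval of -0.321 to -0.0238 and an edgeR adjusted p of 0.0932.

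The other 6 enzymes gave block intervals that include 0. Fdps was the one member with a positive fold change, at 150, 213 and 280 CPM against 147, 194 and 284 CPM. The paired values lay close together, and the interval of its log2 fold change in this block fit was -0.0818 to 0.173. That interval holds for TMM scaling alone and is not corrected for the number of genes. With total counts and the block the log2 fold change was 0.15 (edgeR adjusted p = 0.0662). Fdft1, which joins farnesyl units into squalene, had an interval of -0.210 to 0.0927, and Cyp51 of -0.287 to 0.0313. For Sqle, which makes squalene epoxide, the interval was -0.298 to 0.111, and its pairs did not go one way, at 0.08, 0.03 and -0.36. Hmgcs1 had the widest interval, -0.355 to 0.124, with -0.02, 0.16 and -0.47 within pairs. Pair 3, which holds control library 3, gave the lowest log2 difference for Hmgcs1, Sqle, Cyp51, Fdft1, Fdps and Insig1. Idi1 had its low value in pair 1, at -0.45 against 0.10 and -0.01, and an interval of -0.350 to 0.108.

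**Figure D1:**
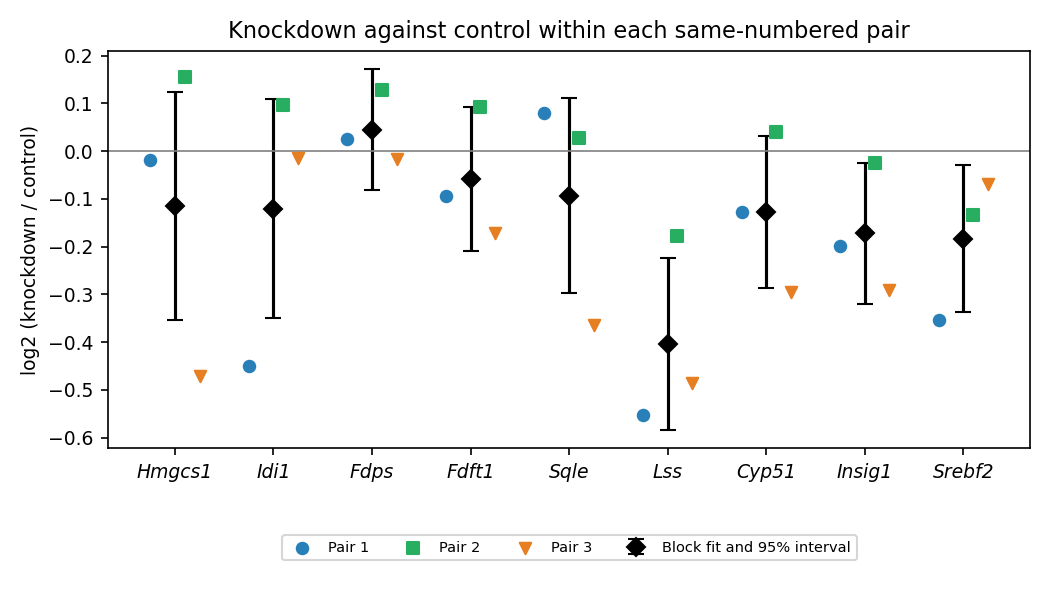
Log2 ratio of knockdown to control for each gene. Circles, squares and triangles are pairs 1, 2 and 3, and diamonds with bars are the edgeR block fit with its 95% interval. The Lss interval, -0.585 to -0.224, lies farthest below 0.

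Directions for the small differences depend on the scaling. With total counts in place of TMM the median log2 fold change over genes tested moved up by 0.108 without and 0.107 with the block, and called genes split into 2822 higher and 819 lower in place of 1412 and 1486. In that block fit 3 of the 9 genes had positive fold changes in place of 1, and Lss still fell (log2 fold change -0.30, adjusted p = 0.0217 in edgeR). In the unblocked fits, leaving out control library 3 turned the median of the 9 to 0.17 and leaving out knockdown library 1 to 0.04. Leaving out knockdown library 3 or control library 1 gave -0.32 and -0.31.

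For most of the 9 genes, libraries with different numbers differed more than the groups did. For 8 of the 9 genes, all but Idi1, the level was lowest in library 1 and highest in library 3 of both groups, an arrangement that 9.23% of all genes showed. Any same order of the 3 numbers in both groups was seen in 36.5% of all genes. Hmgcs1 had the widest span, from 90.8 to 189 CPM in the knockdown libraries and from 92.1 to 262 CPM in the control libraries, which is 2.08-fold and 2.85-fold. Sqle spanned 46.6 to 78.6 CPM and 44.1 to 101 CPM. Both groups thus held low and high libraries of the same numbers. The labels do not say what the numbers mark.

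**Figure D2:**
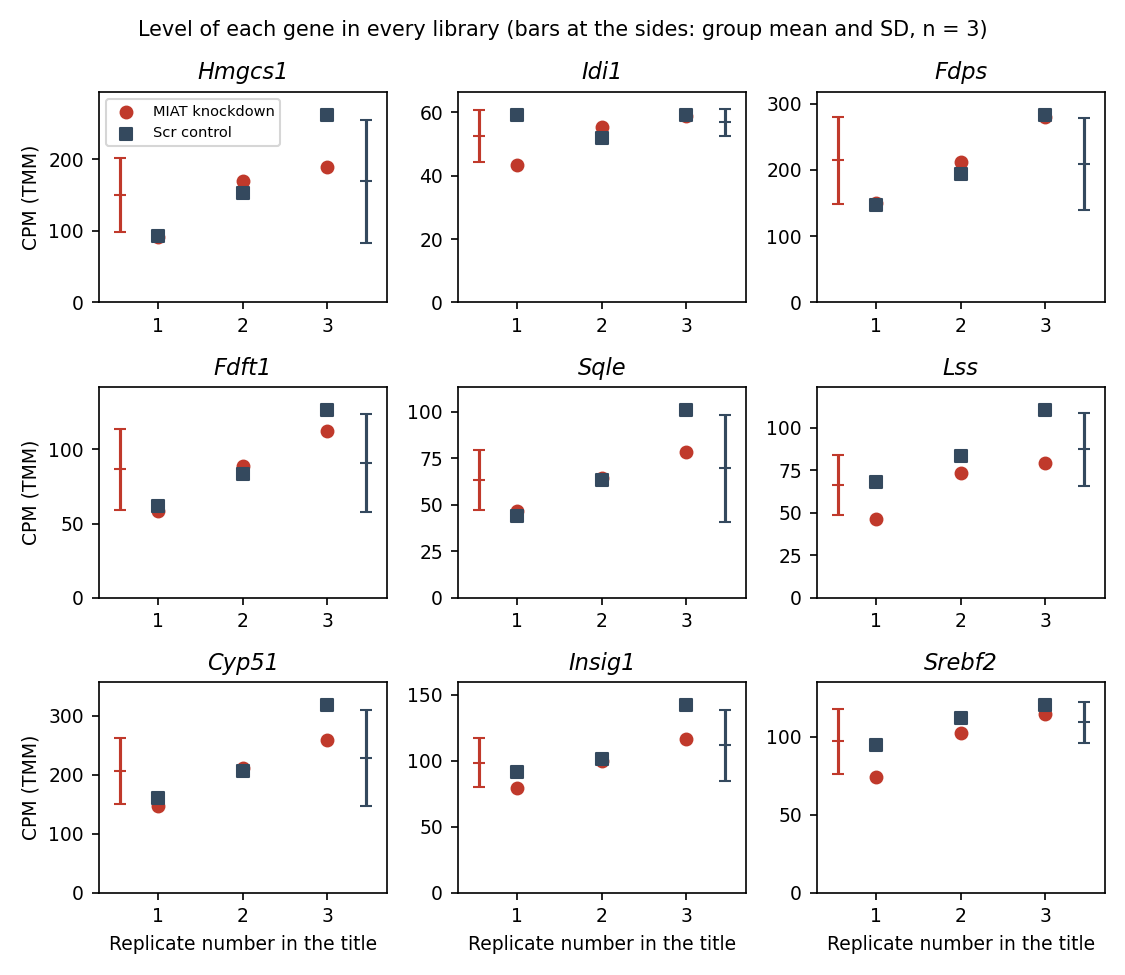
CPM of each gene against the replicate number in the library title, with circles for MIAT knockdown and squares for Scr control. The bars at the sides give the group mean and SD (n = 3). In all panels but that of Idi1, libraries numbered 1 are lowest and those numbered 3 highest in both groups.

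The term for the replicate number in the block fit was tested after the values had been seen. By edgeR's quasi-likelihood test with Benjamini-Hochberg adjustment it passed in 8 of the 9 genes, against 18.8% of all genes. In all 8 the libraries numbered 3 were above those numbered 1, against 8.60% of all genes that passed in that direction. The smallest adjusted p was that of Fdps, 2.52e-04, with 280 against 150 CPM between knockdown libraries 3 and 1, and 284 against 147 CPM between the controls. Fdft1 followed at an adjusted p of 3.94e-04 and spanned 58.2 to 113 CPM and 62.1 to 127 CPM. Cyp51 spanned 147 to 259 CPM and 161 to 318 CPM. The sterol regulators moved less, with log2 differences between numbers 3 and 1 of 0.59 for Insig1 and 0.49 for Srebf2, beside 1.28 for Hmgcs1. These differences between genes were not tested.

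Idi1 was the exception. It stood at 43.3, 55.4 and 58.7 CPM in knockdown libraries 1 to 3 and at 59.2, 51.8 and 59.3 CPM in control libraries 1 to 3. The controls were nearly flat, and the low value was knockdown library 1. Its number term had an adjusted p of 0.431. Without control library 3 it passed at 0.0427, which made 9 of 9, and without knockdown library 1 Srebf2 did not pass (adjusted p = 0.109), which left 7. Without pair 1 the count was 6, with Lss at an adjusted p of 0.112 and Srebf2 at 0.388, all in edgeR. Over all genes the term called 4079 without control library 3, 1530 without knockdown library 1 and 1566 without pair 1. With all libraries it called 2519.

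The spread of log2 CPM over the 6 libraries was split into a share for the number, a share for the group and a rest. The number has more levels than the group, so on average it takes a larger share even where neither matters. The number held 99.0% of it for Fdps, 97.7% for Fdft1, 93.9% for Cyp51, 93.2% for both Hmgcs1 and Sqle, and 85.1% for Insig1. It held 77.3% for Srebf2, 65.6% for Lss and 31.6% for Idi1, and its median over all genes tested was 47.9%. The group held its largest share in Lss, 29.6%, beside 25.8% for the median gene, and 0.363% in Fdps. So the share of the group was below the median gene in 8 of the 9.

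**Figure D3:**
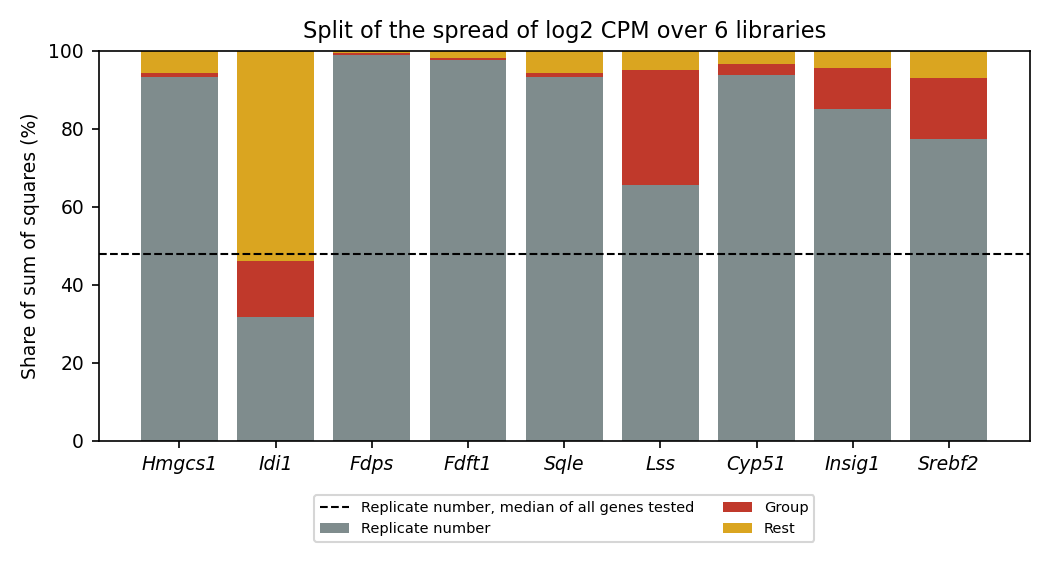
Share of the sum of squares of log2 CPM over the 6 libraries that goes with the replicate number, with the group and with neither, for each gene. The dashed line is the share of the number for the median gene, 47.9%, and Idi1 alone lies below it.

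Other measures differed between numbers as well. The summed fibroblast markers were 3350, 4250 and 5720 FPKM in knockdown libraries 1 to 3 and 3840, 4580 and 8920 FPKM in control libraries 1 to 3, the same arrangement as the cholesterol genes. Col1a1 and Col3a1 made up most of that sum, 3 of the 7 markers showed the arrangement in both groups, and Dcn stood at 729, 619 and 502 FPKM in the control libraries. The summed smooth muscle markers were highest in library 2 of each group. One by one, the number term passed in 7 of these 10 markers, against 18.8% of all genes. In 6 of them number 3 was below number 1, and in 1 above. Total counts ran from 18173111 to 18598394 in the knockdown and from 17793811 to 20121161 in the control group. They were lowest in library 1 and highest in library 3 of each. Knockdown libraries held less of some markers too: in the block fit 4 of the 10 smooth muscle markers and 5 of the 7 fibroblast markers fell, against 11.1% of all genes, and none rose. The part of these in the differences of the 9 genes was not tested.

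Across the 6 libraries the 9 genes followed one another, which is a description over libraries that share groups and numbers. Pearson's r of log2 CPM ranged from 0.499 for Sqle with Idi1 to 0.992 for Cyp51 with Fdft1 over the 36 gene pairs, with a median of 0.889. Each gene's r with the mean of the other 8 was 0.917 to 0.985, apart from Idi1 at 0.659. Among 10469 other genes with a mean of at least 5 CPM, the closest to the mean profile of the 9 were Mtch1 (r = 0.997), Aacs (0.996), Rps18 (0.995), Hibadh (0.994), Eif3f (0.993) and Cd302 (0.992). Aacs encodes acetoacetyl-CoA synthetase, which feeds ketone bodies into lipid synthesis, Mtch1 a mitochondrial outer membrane protein, Hibadh an enzyme of valine breakdown and Eif3f a translation initiation factor subunit. Aacs went from 45.3 to 58.7 CPM and from 49.3 to 63.8 CPM between libraries 1 and 3, a narrower span than that of Hmgcs1. Reads of Rps18, a ribosomal protein gene with many copies, are uncertain. Of the genes in the pathway lists, Acss2, a synthetase of acetyl-CoA, came next at rank 17 (r = 0.984).

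Of the 22 tested genes of mevalonate and sterol synthesis, 7 of which are the enzymes above, 2 rose, 1 fell and 19 did not pass in the block fit, against 21.6% of all genes called either way, with a median block log2 fold change of -0.09. The number term passed in 16 of the 22, against 18.8% of all genes, in all 16 with number 3 above number 1, and 18 showed the arrangement with library 1 lowest and library 3 highest in both groups. The log2 difference between numbers 3 and 1 was 1.20 for Dhcr7, which completes cholesterol in one branch, with Mvd 0.86, Acat2 0.79, Mvk 0.74, Nsdhl 0.73, Erg28 0.56 and Sc5d 0.45, and the number term passed in each of them. Tm7sf2 (0.74), Pmvk (0.40), Hsd17b7 (0.31) and Ebp (-0.08) did not pass the number term.

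The risers were Msmo1 and Lbr. DESeq2 with the block called neither (adjusted p = 0.0543 for Msmo1 and 0.0821 for Lbr). Neither did edgeR without the block (0.625 and 0.146), while limma-voom with the block called both (0.0345 and 0.0144). Msmo1, a methylsterol oxidase downstream of Cyp51, stood at 189, 227 and 267 CPM in the knockdown and 136, 194 and 251 CPM in the control libraries. It was above the control of its number in each pair, by 1.20-fold in the block fit, with an edgeR adjusted p of 0.0390. Its call ended without pair 1 (log2 fold change 0.16, adjusted p = 0.268) and without pair 2 (0.28, 0.163). Lbr, a sterol reductase that is also a receptor for lamin B in the nuclear envelope, stood at 45.1, 40.0 and 38.8 CPM against 34.9, 33.7 and 30.8 CPM. The groups did not overlap, and its block fold was 1.25 at an edgeR adjusted p of 0.0150. Without pairs 1 or 2 the call ended at a like size (0.29 and 0.35, adjusted p = 0.0823 and 0.0817). Lbr was not high in libraries numbered 3, with a log2 difference of -0.20 and a number term at adjusted p = 0.253.

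**Figure D4:**
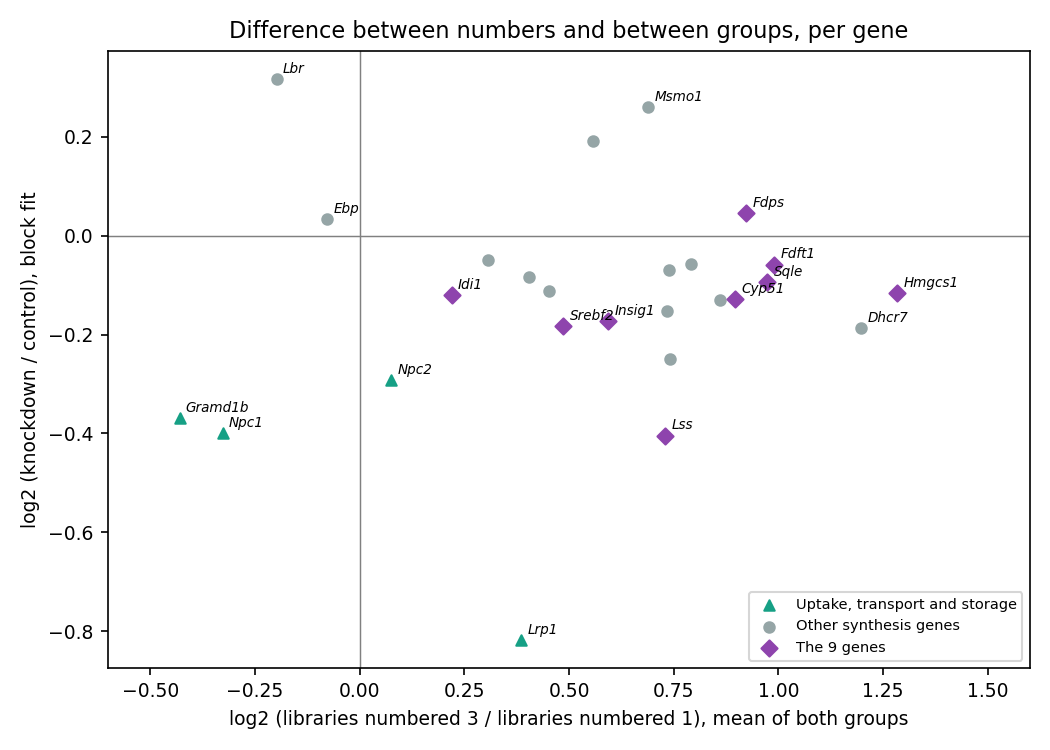
Each gene's log2 difference between libraries numbered 3 and 1 against its block log2 fold change of knockdown over control. Diamonds are the 9 genes, circles other synthesis genes named here and triangles the named genes of uptake, transport and storage. Synthesis genes spread along the horizontal axis, while Lrp1 lies lowest on the vertical axis.

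Among genes that sense sterol and process SREBP, 1 of 17 rose, 4 fell and 12 did not pass, against 10.5% higher and 11.1% lower over all genes, with a median of -0.06. Srebf1, the sister gene of Srebf2, fell from 40.3 ± 6.72 to 33.2 ± 4.89 CPM, and Mbtps1, the site 1 protease that cuts SREBP, from 222 ± 35.7 to 193 ± 21.7 CPM. Vcp, the ATPase that extracts proteins for degradation, fell by a log2 fold change of 0.22, while Rnf139, a sterol-responsive ubiquitin ligase, rose by 0.28. These 4 calls ended without pair 1 (Srebf1 -0.29, Mbtps1 -0.22, Vcp -0.17, Rnf139 0.29) and without pair 2 (-0.30, -0.22, -0.26, 0.26). With all pairs, limma-voom with the block also called the 4 genes. DESeq2 with the block called Vcp (adjusted p = 0.0254) but not Srebf1 (0.109), Mbtps1 (0.082) or Rnf139 (0.275). With total count scaling the list counted 2 risers and 0 fallers, while 2822 of all genes were called higher and 819 lower. There the 4 genes kept their signs, at -0.17 for Srebf1, -0.0891 for Mbtps1, -0.11 for Vcp and 0.39 for Rnf139, relative to a shift of 0.107 in the median of all genes.

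Genes that take up, move and store cholesterol gave 7 fallers and 0 risers of 19, against 11.1% and 10.5% of all genes, with a median block log2 fold change of -0.17 beside -0.01 over all genes. Lrp1, a large receptor of lipoproteins and many other ligands, fell from 3094 ± 613 to 1748 ± 275 CPM, 1.76-fold at an edgeR adjusted p of 6.65e-04. This call held without each pair, with log2 fold changes of -0.88 to -0.78. Npc1 and Npc2, which carry cholesterol out of lysosomes, fell by log2 fold changes of 0.40 and 0.29, and Gramd1b, a sterol transfer protein, by 0.37. Without pair 2 the calls of Npc1 (-0.39), Npc2 (-0.33) and Gramd1b (-0.42) ended, as did those of Npc2 (-0.26) and Gramd1b (-0.29) without pair 1. The list had 4 fallers without pair 1, 2 without pair 2, 9 fallers and 1 riser without pair 3, and 5 fallers and 1 riser with total count scaling. Over all genes, 665 were called lower without pair 1 and 388 without pair 2. Without pair 3 it was 2200 lower and 1924 higher, and with total count scaling 819 lower and 2822 higher.

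Of 13 genes of cholesterol efflux and the LXR receptors, 2 rose and 2 fell, against 10.5% and 11.1% of all genes, with a median of -0.08. Abca1, the transporter that loads cholesterol onto apolipoproteins, fell from 60.4 ± 15.4 to 32.8 ± 2.48 CPM, 1.82-fold at an edgeR adjusted p of 0.00173. Arl4c, a small GTPase gene, rose from 101 ± 20.5 to 132 ± 22.1 CPM, and both calls held without each pair. Abcg1, another sterol transporter at a low level, rose by a log2 fold change of 0.73 and Lpcat3, a phospholipid acyltransferase, fell by 0.23. The Abcg1 call ended without pair 1 (0.84), pair 2 (0.90) or pair 3 (0.50), and the Lpcat3 call without pair 1 (-0.16) or pair 2 (-0.32).

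Fatty acid synthesis, the branch driven mainly by SREBP1, gave 4 fallers and 0 risers of 16, against 11.1% and 10.5% of all genes, with a median of -0.15. Scd2, a desaturase, stood at 313, 591 and 687 CPM against 427, 624 and 1171 CPM, so that it was lower in each knockdown library than in its paired control and also high in libraries numbered 3. Its block log2 fold change was -0.43 at an edgeR adjusted p of 0.0262, and the unblocked value was 0.0141 without control library 3. Acly, which makes cytosolic acetyl-CoA, fell 1.23-fold, and Acaca and Fasn, which build the acyl chain, by log2 fold changes of 0.27 and 0.17. The number term passed in 9 of the 16, against 18.8% of all genes, in 8 of them with number 3 above number 1. Without pair 1 the calls of Scd2 (-0.42), Acly (-0.30), Acaca (-0.26) and Fasn (-0.16) ended, and without pair 2 those of Acly (-0.35), Acaca (-0.36) and Fasn (-0.18). With total count scaling 2 rose and 2 fell, while 2822 of all genes were called higher and 819 lower.

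The isoprenoid branch, which uses farnesyl and geranylgeranyl units for protein prenylation, dolichol and ubiquinone, counted 1 riser and 1 faller of 14, against 10.5% and 11.1% of all genes, with a median of 0.07. Rabggtb, a subunit of the enzyme that prenylates Rab proteins, rose from 105 ± 2.12 to 125 ± 9.78 CPM, and Zmpste24, the protease that matures prelamin A, fell from 104 ± 8.79 to 89.8 ± 5.74 CPM. Both calls ended without pair 1 (0.22 and -0.21) and without pair 2 (0.32 and -0.22). With total count scaling 4 genes rose and 0 fell, while 2822 of all genes were called higher and 819 lower. The number term passed in 1 of the 14, beside 16 of 22 synthesis genes and 18.8% of all genes.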

How the data were processed

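The authors deposited raw counts by gene symbol and FPKM values. Each deposited FPKM matched its count over gene length and library total (100% of values, relative tolerance 1e-06). The sources used here do not give the aligner, counting program, strand setting or build. Libraries were grouped by title. Counts were scaled with TMM, filtered with filterByExpr and tested with edgeR 4.0.16 (R 4.3.3) over all 13423 genes, adjusted by Benjamini-Hochberg at 0.05, for knockdown against control without a block. DESeq2 1.42.0 and limma 3.58.1 served as alternatives, with other scalings, filters, pseudocounts of 1 and 0.1 on log2 FPKM, and left-out libraries and pairs.

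After removal of group means, same-numbered libraries correlated across genes at 0.676, 0.517 and 0.582, and others at -0.562 to -0.0521. With group means removed the deviations of a group cancel, so positive values for same numbers force negative ones elsewhere. The pairing was read from these correlations and the titles, whose numbers the labels do not explain. The biological coefficient of variation was 19.7% without and 8.09% with the block. The fits were also run on simulated counts that held an effect shared by same-numbered libraries. Such a run cannot decide between the fits with and without the block, because the shared effect was put in.

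The genes and lists were chosen with earlier results of these data known. Named genes are the 9, the other synthesis genes, up to 4 called genes of largest fold change and the most abundant gene per length of each further list, and the 6 closest profiles. Some genes that this rule names are not reported here.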

Additional observations from a re-analysis of the deposited data

How the results depend on the processing

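With TMM and the replicate block, calls over all genes numbered 2898, for the 9 genes 1 and for the synthesis list 3, against 0 each without it. DESeq2 called 699 genes without and 1590 with the block (1 of the 9, 1 of the list). With the block, limma-voom called 3051 (1 and 3), DESeq2 size factors in edgeR 2961 (1 and 3), total counts 3641 (1 and 4) and no low-count filter 3128 (1 and 3). The block fit called 1195 genes without pair 1, 736 without pair 2 and 4124 without pair 3, with 1, 1 and 2 of the 9 and 1 to 3 of the list. The number term, whose alternatives were added after seeing the data, called 2519 genes. It called 1566 without pair 1, 1452 without pair 2 and 2784 without pair 3. With single knockdown libraries 1, 2 and 3 left out it called 1530, 1214 and 5353, and with the controls left out in turn 1363, 1308 and 4079, with 6 to 9 of the 9. The cause of these changes was not tested.

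Of the values of the 9 genes under 22 alternatives, 164 kept direction and side of the threshold, 10 newly passed it and 24 changed sign without passing it. With single libraries left out of the unblocked fit, log2 fold changes ranged from -0.47 to 0.30 for Hmgcs1, -0.38 to 0.24 for Sqle, -0.35 to 0.17 for Cyp51, -0.20 to 0.0100 for Idi1, -0.30 to 0.25 for Fdft1, -0.20 to 0.33 for Fdps, -0.55 to -0.19 for Lss, -0.31 to -0.0051 for Srebf2, -0.32 to 0.0316 for Insig1 and -0.76 to 0.0141 for Scd2. Values above 0 for genes other than Fdps came without control library 3 or knockdown library 1, and for Fdps negative ones without knockdown library 3 or a control numbered 1 or 2. With the block, leaving out pair 3 gave 0.0718 for Hmgcs1, 0.0505 for Sqle and 0.0024 for Fdft1, and leaving out pair 1 gave 0.0449 for Idi1. Total counts gave 0.0468 for Fdft1 without the block, and 0.0501 for Fdft1 and 0.0159 for Sqle with it. On log2(FPKM + 1) Sqle gave 0.0204 and Fdft1 0.0485, and on log2(FPKM + 0.1) 0.0223 and 0.0502. Of the calls with the block of the other 21 genes the naming rule takes, 112 values kept their call, 349 lost it, mostly in unblocked fits, and 1 changed sign.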
